A study of Mus musculus with 6 samples.

Results

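The 10 genes described here carry out antigen presentation by the major histocompatibility complex (MHC). They were listed by name and function out of 45706 genes in the count table, with earlier results of these data known. H2-Aa, H2-Ab1 and H2-Eb1 encode chains of the class II molecules. H2-DMa, H2-DMb1 and Cd74 serve the loading of class II molecules, and Ciita encodes the class II transactivator. B2m, H2-K1 and H2-D1 encode the light chain and the classical heavy chains of class I. All 10 members passed the filter on low counts and were tested.

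Class I molecules sit on nearly all nucleated cells and show peptides cut from proteins of the cell itself to CD8+ T cells. Class II molecules show peptides from engulfed material to CD4+ T cells and are best known from B cells, dendritic cells and macrophages. Blood stem and progenitor cells carry class I and can also carry class II. Ciita binds no DNA by itself but is recruited to a shared promoter module of class II genes, and its relative Nlrc5 acts in the same way on class I genes.

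RNA was sequenced from LSK cells of the bone marrow, which lack mature lineage markers and carry Sca-1 and Kit, with 1 library per mouse. Setd1b, which encodes a histone H3 lysine 4 methyltransferase, was compared between 3 Ctrl mice (Setd1b HET, FD/+; RC/+) and 3 cKO mice (Setd1b HOM, FD/FD; RC/+). Every mouse was on the C57BL/6 strain, carried 1 copy of the tamoxifen-inducible Rosa26-Cre-ERT2 allele (RC), which is active in almost all tissues, and was gavaged with 4.5 mg tamoxifen per dose. The labels give 4 daily doses, a pause of 3 days and 2 more doses, with collection 3 days after the last one. The study text gives a different number of doses. The Ctrl mice thus also lost 1 Setd1b allele, and the comparison is of the loss of both alleles with the loss of 1. Mice were 16 weeks old, apart from cKO replicate 3, which was 17 weeks old.

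The libraries held between 13003573 and 21277519 counted reads. The library numbers in the table header fall into 2 series, with Ctrl replicate 1 and cKO replicates 1 and 2 in the first and Ctrl replicates 2 and 3 and cKO replicate 3 in the second. The transcripts Gm42418 and Gm26917 together took up 4.45 to 5.30% of each library in the first series and 7.52 to 9.04% in the second. Setd1b itself was at 221, 194 and 223 CPM (counts scaled to a common library size) in the Ctrl libraries. It was at 272, 288 and 314 CPM in the libraries labelled cKO, higher by 0.46 on the log2 scale (SE 0.073, adjusted p = 0.0015). This goes against the label if read as a level of intact transcript. The gene count sums all exons and does not resolve the exon that Cre removes, so it does not check the genotype, and the groups are called by their labels throughout. The study reported complete Cre recombination by PCR in sorted stem and progenitor cells. By qRT-PCR with a primer in the removed exon, it reported loss of Setd1b mRNA in sorted cKO progenitors. Both were taken weeks after induction, later than the libraries used here. Kit, Ly6a and Cd34, which define or mark the sorted compartment, were detected in every library, and 0 of 6 LSK markers passed the test. Of the 6, 5 had log2 fold changes below 0 and 1 above. In edgeR's test, Flt3 (-0.31, adjusted p = 0.12) and Cd48 (-0.49, adjusted p = 0.074) had an unadjusted p under 0.05. Over all genes tested, 22.9% lay under it. For Cd48 the log2 difference was 0.084 within the first library series and -1.08 within the second.

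The promoter sequences are shown first because the 2 classes of members share some matches to the letters of short sequence boxes and differ in others. RefSeq promoter windows (build GRCm38.p6, 250 bases before to 50 after a transcription start) were at hand for 7 of the 10 members. H2-Ab1, Cd74 and Ciita were not matched. Each stretch below is the 160 bases before the start, read 5′ to 3′ on the gene's strand, in lower case. Matches to X1, Y and the IRF core are in capitals. X2 is in capitals only where it reads on the printed strand and a Y follows at the spacing given further below. Other X2 matches were left in lower case, such as those in H2-Eb1 at -143 and -67 from the start. The letters searched on both strands were CTNGNAACT for the X1 box, TGANG for the X2 box, ATTGG for the Y box (CCAAT on the other strand) and AANNGAAA for the core of an interferon regulatory factor (IRF) site. In the class II promoters H2-Aa (chr17:34287824-34287983, minus strand) and H2-Eb1 (chr17:34305707-34305866, plus strand) the X1 box is followed by X2 and Y. X1 overlaps X2 in H2-Eb1.
H2-Aa: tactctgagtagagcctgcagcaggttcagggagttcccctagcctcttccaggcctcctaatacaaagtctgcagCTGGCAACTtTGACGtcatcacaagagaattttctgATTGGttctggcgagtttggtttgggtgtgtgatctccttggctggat
H2-Eb1: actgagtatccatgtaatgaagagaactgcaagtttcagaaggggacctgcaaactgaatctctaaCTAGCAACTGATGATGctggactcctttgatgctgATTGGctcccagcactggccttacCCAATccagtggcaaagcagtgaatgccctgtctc

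The class I promoters B2m (chr2:122147527-122147686, plus strand) and H2-K1 (chr17:34000334-34000493, minus strand) hold X2 followed by Y and an IRF match further upstream. They hold no match to the X1 letters.
B2m: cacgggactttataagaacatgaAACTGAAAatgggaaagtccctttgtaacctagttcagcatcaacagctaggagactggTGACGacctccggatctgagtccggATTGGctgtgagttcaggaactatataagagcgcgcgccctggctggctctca
H2-K1: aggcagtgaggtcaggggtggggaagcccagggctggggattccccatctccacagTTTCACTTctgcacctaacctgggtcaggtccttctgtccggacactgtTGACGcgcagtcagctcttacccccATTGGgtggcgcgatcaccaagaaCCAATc

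X1, X2 and Y in this order, with 10 to 25 bases between X2 and Y, were found in H2-Aa, H2-Eb1 and H2-DMb1 and in 6 of 32817 windows in all (0.0183%). X2 followed by Y was found in B2m, H2-K1 and H2-D1 too, and in 2.12% of windows. Alone, the short patterns are common, at 4.10% of windows for X1, 89.4% for X2, 37.4% for Y and 23.9% for the IRF core. The IRF core was present in the windows of H2-Aa, B2m, H2-K1 and H2-D1 and in 1 of the 2 H2-DMa windows. The letters were chosen after the members' windows had been read, so the counts and the class difference in X1 matches are descriptions. A match is not a bound site, and the lack of a match to these letters does not show that a box is absent. The RefSeq starts of the 2 H2-DMa windows lie 12350 and 9664 bases from the gene start in the count table, and neither window holds X2 followed by Y.

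**Figure D1:**
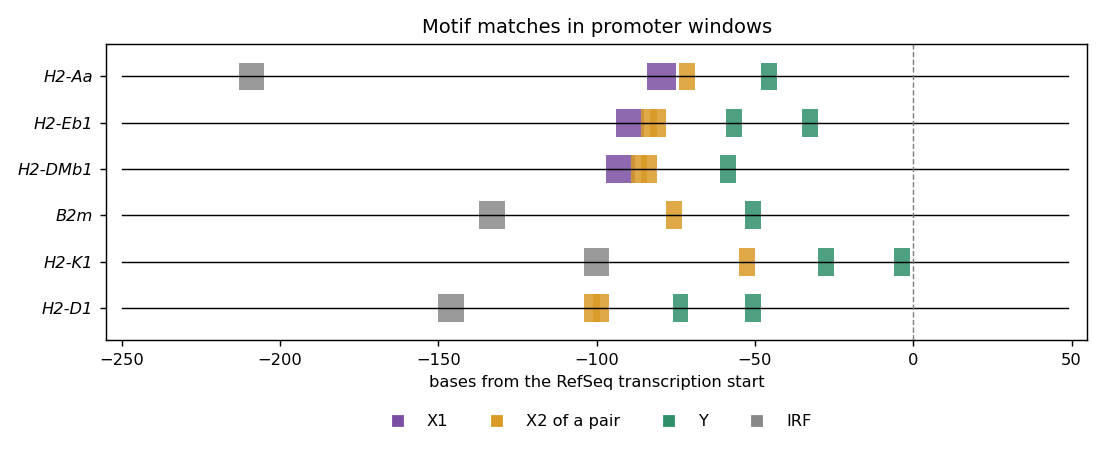
Motif matches (coloured boxes) along the promoter windows of 6 members, plotted by distance in bases from the RefSeq start (dashed line), with X2 drawn where a Y follows it. The 3 class II promoters hold matches to X1, X2 and Y. The 3 class I promoters hold X2 and Y matches and an IRF match upstream, and no match to the X1 letters.

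The class I members were among the abundant transcripts of LSK cells and the class II members were at low to moderate levels. In RPKM, which is CPM divided by the summed exon length in kilobases and the scale on which genes can be compared with each other, the median level over the 6 libraries was 1296 for B2m, 415 for H2-K1 and 241 for H2-D1. H2-DMa, at 41.8 RPKM, was the highest class II member. H2-Ab1 (14.9 RPKM) and Cd74 (13.2 RPKM) followed, with overlapping ranges. H2-DMb1 was at 4.18, H2-Eb1 at 3.39 and H2-Aa at 3.08 RPKM, and neighbours in this order overlapped. Ciita was lowest at 0.643 RPKM, below every value of the other members. Heavy chain reads are uncertain, since the class I genes are a family of near-identical copies and reads that fit several copies were not counted.

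Of the 10 members, 0 passed the threshold of an adjusted p under 0.05 in edgeR's quasi-likelihood test, against 7.67% of the 15184 genes tested (3.88% higher and 3.79% lower in cKO). At an unadjusted p under 0.05 the count was also 0 of 10, where 22.9% of all genes tested lay under it, and DESeq2 likewise called 0. All 7 class II members had log2 fold changes below 0, with a median of -0.19, and all 3 class I members had values above 0, with a median of 0.04. The median over all genes tested was 0.00023, with 49.9% below 0. Several class II values are close to 0 and changed sign when 1 mouse was left out, so these directions are not calls.

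Of the class II chains, H2-Aa encodes the alpha chain of the I-A molecule. It was at 10.6, 5.48 and 6.08 CPM in Ctrl replicates 1 to 3 and at 7.97, 4.89 and 4.63 CPM in cKO replicates 1 to 3. Replicate 1 was the highest of its group in both genotypes, and the groups overlapped. The log2 fold change was -0.33 (95% confidence interval -0.91 to 0.26, adjusted p = 0.53). H2-Ab1, the beta chain that pairs with it, was at 27.8, 21.98 and 26.7 CPM in Ctrl and at 33.6, 20.6 and 21.8 CPM in cKO. The highest and the lowest library were both cKO, and the log2 fold change was -0.0053 (interval -0.35 to 0.34, adjusted p = 0.99). H2-Eb1, the beta chain of the I-E molecule, was at 6.20, 2.29 and 3.71 CPM in Ctrl and at 4.56, 4.32 and 2.17 CPM in cKO. The spread within each group exceeded the difference between them, with a log2 fold change of -0.11 (interval -0.88 to 0.65, adjusted p = 0.89). H2-Eb1 rested on 31 to 81 reads per library.

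H2-DMa, a chain of the H2-M molecule that exchanges the invariant chain peptide for antigen, was at 70.6, 76.7 and 69.9 CPM in Ctrl and at 61.6, 67.5 and 66.4 CPM in cKO. It was the class II member whose groups did not overlap, with a log2 fold change of -0.15 (interval -0.31 to 0.0083, adjusted p = 0.24). Groups did not overlap for 3 of the 10 members, beside 27.3% of all genes tested. H2-DMb1, the partner chain, was at 9.80, 5.77 and 6.14 CPM in Ctrl and at 6.50, 6.16 and 6.24 CPM in cKO. Ctrl replicate 1 stood above the other 5 libraries, and the log2 fold change was -0.19 (interval -0.66 to 0.29, adjusted p = 0.68). Without that mouse it was 0.08.

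Cd74, the invariant chain that escorts class II molecules and fills their groove, was at 23.03, 19.0 and 18.2 CPM in Ctrl and at 24.2, 13.0 and 12.6 CPM in cKO. cKO replicate 1 was the highest of all 6 libraries and the other 2 cKO libraries were the lowest. The log2 fold change was -0.27 (interval -0.70 to 0.16, adjusted p = 0.48). With cKO replicate 1 left out it was -0.64 with an adjusted p of 0.026, so the call for Cd74 depends on 1 mouse. Ciita was at 3.903, 3.24 and 3.52 CPM in Ctrl and at 4.02, 2.16 and 1.40 CPM in cKO. The same pattern held, with cKO replicate 1 highest and the other 2 cKO libraries lowest. Its log2 fold change of -0.48 (interval -1.21 to 0.25, adjusted p = 0.44) rested on 20 to 68 reads per library.

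**Figure D2:**
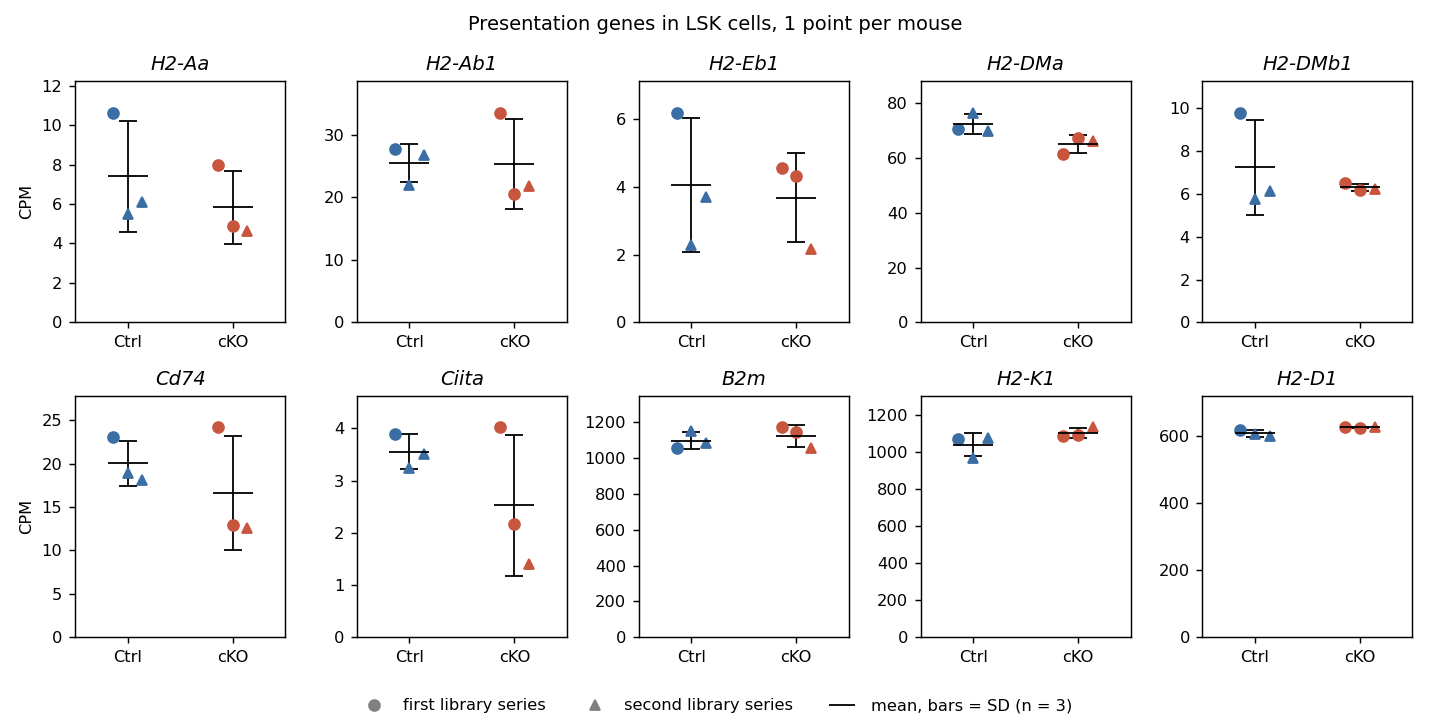
CPM of each of the 10 members (y axis, from 0) in the 3 Ctrl and 3 cKO libraries, 1 point per mouse, with the marker shape giving the library series and the bars mean ± SD (n = 3). The groups overlap for 7 members, and cKO replicate 1 is the highest library for H2-Ab1, Cd74, Ciita, B2m and H2-D1.

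B2m, the light chain shared by all classical class I molecules, was at 1057, 1151 and 1082 CPM in Ctrl and at 1171, 1147 and 1055 CPM in cKO. The groups overlapped, and the log2 fold change was 0.04 (interval -0.10 to 0.17, adjusted p = 0.79). The log2 difference was 0.13 within the first library series and -0.08 within the second. H2-K1 was at 1073, 969.6 and 1077 CPM in Ctrl and at 1086, 1091 and 1133 CPM in cKO. All cKO libraries lay above all Ctrl libraries, by a log2 fold change of 0.09 (interval -0.05 to 0.22, adjusted p = 0.46). H2-D1 was at 619, 605 and 598 CPM in Ctrl and at 626, 625 and 625 CPM in cKO. These groups did not overlap either, and the log2 fold change was 0.04 (interval -0.08 to 0.16, adjusted p = 0.72). The intervals of the class I members end at 1.16-fold or below, whereas those of the class II members reach down to 0.431-fold for Ciita and 0.531-fold for H2-Aa.

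**Figure D3:**
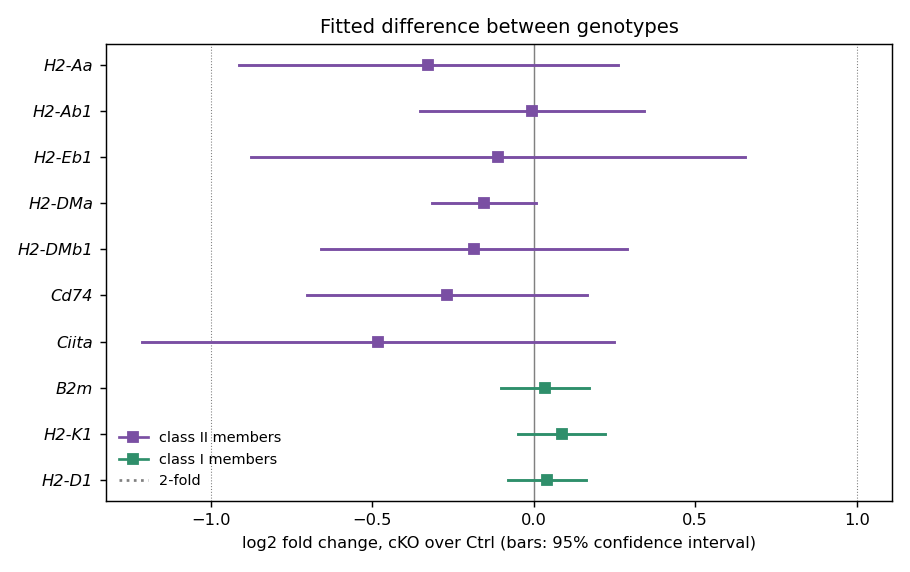
Fitted log2 fold change of each member, cKO over Ctrl (squares), with its 95% confidence interval (lines) and 2-fold marked by dotted lines. All 10 intervals include 0, and those of the class I members are narrower than those of the class II chains.

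Summed over the chains, class II varied from mouse to mouse within each genotype. H2-Aa, H2-Ab1 and H2-Eb1 together came to 44.6, 29.7 and 36.5 CPM in Ctrl and to 46.1, 29.8 and 28.6 CPM in cKO. Ctrl replicate 1 and cKO replicate 1 were the highest libraries, and the difference of log2 means was -0.10 beside an SD of 0.34 within groups. It was -0.27 and -0.20 within the library series, -0.32 without cKO replicate 1 and 0.045 without Ctrl replicate 1. Among the 7 class II members, each of these 2 mice was the highest of the 6 for 3, and cKO replicate 3 was the lowest for 4. B2m, H2-K1 and H2-D1 together came to 2748, 2726 and 2758 CPM in Ctrl and to 2883, 2863 and 2813 CPM in cKO. On this scale the cKO libraries lay above the Ctrl libraries, by 0.06 in log2. Summed per kilobase of exon, which weights B2m more, the groups overlapped, with differences of 0.094 and -0.015 within the library series. The ratio of the class I to the class II sum was 61.6, 91.6 and 75.5 in Ctrl and 62.5, 96.1 and 98.3 in cKO. The log2 ratio differed by 0.16 beside an SD of 0.33 within groups, so a shift between the classes was not resolved in 3 against 3 mice. The difference was 0.33 and 0.24 within the library series. It was 0.37 without cKO replicate 1 and 0.30 without Ctrl replicate 2, and it was 0.013 without Ctrl replicate 1, 0.059 without cKO replicate 2 and 0.043 without cKO replicate 3. These sums have no test of their own. An exact two-sided permutation test of 3 against 3 could not go below p = 0.1.

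**Figure D4:**
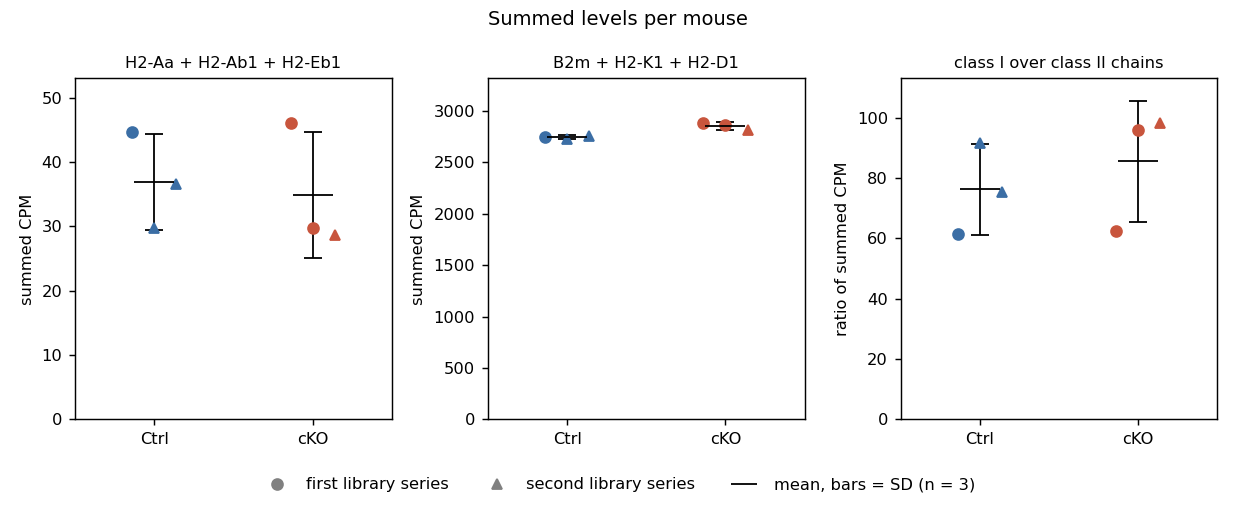
Summed CPM of the class II chains, summed CPM of the class I members and the ratio of the sums (y axes, from 0), 1 point per mouse by genotype, with mean ± SD (n = 3) and marker shape for the library series. The class II sum spans 28.6 to 46.1 CPM with overlapping groups, and the class I sum spans 2726 to 2883 CPM.

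The class II loading members H2-DMa, H2-DMb1 and Cd74 summed to 103, 101 and 94.2 CPM in Ctrl and to 92.3, 86.6 and 85.3 CPM in cKO, without overlap. H2-DMa makes up most of this sum. In bulk RNA, fewer cells of a class II-bearing type and less class II RNA per cell cannot be told apart. B cells are a main source of class II RNA. Of the B cell list, Cd79a had 0 to 6 reads per library and Ms4a1 0 to 1, while Pax5 had 2 to 27, Ebf1 10 to 39 and Cd79b 185 to 347. The 10 genes of that list summed to between 17.0 and 22.4 CPM in Ctrl and between 17.7 and 21.98 CPM in cKO, and 0 of the 2 tested passed. The T cell gene Cd3e had 0 to 1 reads. Of the dendritic cell list, Itgax had 21 to 92 reads and Siglech 1 to 13. Of the 6 members tested 2 fell, with log2 fold changes of -1.37 for Zbtb46 (adjusted p = 0.025) and -2.45 for Clec9a (adjusted p = 0.047). Both were low, with 14 to 56 reads per library for Zbtb46. Clec9a had 12, 26 and 19 reads in Ctrl and 7, 0 and 2 in cKO. Of the monocyte and macrophage list, 4 of 10 fell, namely Csf1r, Cd68, Cd163 and Ly6c2. That list summed to between 70.5 and 94.7 CPM in Ctrl and between 39.3 and 49.99 CPM in cKO. Its markers Adgre1 (10 to 38 reads) and C1qa (6 to 25 reads) did not pass the test. Their log2 fold changes were 0.98 and -0.06, and 8 of the 10 genes lay below 0 and 2 above. Of the plasma cell list 1 of 3 tested genes fell (Jchain, log2 fold change -2.80), and of the T cell and innate lymphoid list 1 of 5 (Nkg7, log2 fold change -0.85). Of these 5, 3 had log2 fold changes below 0 and 2 above. Those above were Cd4 (0.81, adjusted p = 0.13), also a lineage cocktail gene, and Thy1 (0.55, adjusted p = 0.094), without a call. Of the 5 lineage cocktail genes tested, Itgam rose by 0.43 (adjusted p = 0.019). Trbc1 and Trdc fell, with log2 fold changes of -4.48 (adjusted p = 0.0008) and -4.25 (adjusted p = 0.0061). Both were low, at 34 to 87 reads in Ctrl and 0 to 7 in cKO for Trbc1. Trdc had 12 to 22 reads in Ctrl and 0 to 2 in cKO. These list counts stand beside 3.88% of all genes tested that rose and 3.79% that fell. The part of these cells in the class II values was not tested.

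The wider pathway lists held 71 further genes, of which 61 were tested. In them 9 rose and 7 fell in cKO, where 3.88% of all genes tested rose and 3.79% fell, and 45 did not pass the test. With the library series as a covariate, 6 rose and 7 fell. Among the other class II genes, H2-Ob, a chain of the H2-O molecule that restrains H2-M, was at 18.2, 18.0 and 15.4 CPM in Ctrl and at 9.38, 11.1 and 11.7 CPM in cKO. The groups were well apart, and H2-Ob fell by 0.68 on the log2 scale (SE 0.14, adjusted p = 0.0080). It was the gene of this list that passed, 1 of 3 tested, while its partner H2-Oa lay at 0.12 on the same scale (adjusted p = 0.72). Among the proteases and membrane regulators 2 of 7 rose and 0 fell, with log2 fold changes above 0 for 3 and below 0 for 4. March8 lay at -0.40 without overlap of the groups, and without a call (adjusted p = 0.057). March1, with 11, 21 and 11 reads in Ctrl and 3, 0 and 0 in cKO, and Cd83, with 0 to 8 reads, were not tested. Ctss, the cathepsin that trims the invariant chain, rose by 0.33 (adjusted p = 0.042), and Lgmn, an asparaginyl endopeptidase of the endosome, rose by 0.81 (adjusted p = 0.042). Lgmn was low, at 3.71 to 5.96 CPM in Ctrl and 6.59 to 9.40 CPM in cKO. Both lost their call without Ctrl replicate 1, Ctrl replicate 3, cKO replicate 1 or cKO replicate 2, with adjusted p from 0.061 to 0.17. With the library series as a covariate they also lost it (adjusted p = 0.082 for Ctss and 0.097 for Lgmn).

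The factors that bind the X and Y boxes printed above were without a call, 0 of 7 in either direction. These were the RFX subunits Rfx5, Rfxank and Rfxap for X1, Creb1 for X2, and the NF-Y subunits Nfya, Nfyb and Nfyc for Y. Their log2 fold changes lay between -0.08 and 0.20. Nlrc5, the class I transactivator, lay at 0.04 (adjusted p = 0.80).

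Of the 13 genes of class I peptide loading and the immunoproteasome, 3 fell and 0 rose. Calr, the chaperone calreticulin, was at 2232, 2159 and 2513 CPM in Ctrl and at 1662, 1464 and 1625 CPM in cKO, and fell by 0.54 (SE 0.072, adjusted p = 0.00033). Canx, the membrane-bound chaperone calnexin, fell by 0.39 (adjusted p = 0.0016), and Pdia3, their partner disulfide isomerase, by 0.30 (adjusted p = 0.0087, or 0.057 without cKO replicate 2). All 3 serve the folding of glycoproteins in general as well as of class I. Among the genes more particular to class I, the peptide transporter subunits Tap1 and Tap2 had log2 fold changes of -0.19 each (adjusted p = 0.072 and 0.11). The immunoproteasome subunits Psmb8, Psmb9 and Psmb10 lay between -0.10 and 0.04. Tap1 and Psmb9 overlap in the annotation.

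Among 15 tested further class I and class I-like chains, 3 rose and 1 fell. H2-T23, which encodes Qa-1, a ligand of inhibitory and activating receptors on natural killer cells, was at 96.9, 88.1 and 87.5 CPM in Ctrl and at 125, 127 and 121 CPM in cKO, and rose by 0.46 (SE 0.067, adjusted p = 0.00076). H2-Q4, a Qa-region chain, rose by 0.38 (adjusted p = 0.0052), and Fcgrt, the neonatal Fc receptor, by 0.83 (adjusted p = 0.042). Fcgrt lost its call when any mouse other than Ctrl replicate 2 was left out (adjusted p from 0.090 to 0.13). H2-T24 fell by 0.82 (adjusted p = 0.0022), from 27.5 to 31.8 CPM in Ctrl to 12.7 to 19.4 CPM in cKO. The H2-T and H2-Q genes share sequence with other class I copies, so their counts carry the same uncertainty as those of H2-K1 and H2-D1.

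In the interferon gamma axis, 2 of 12 genes fell and 1 rose, while log2 fold changes lay above 0 for 9 and below 0 for 3. In edgeR's test 7 had an unadjusted p under 0.05, beside 22.9% of all genes tested. Groups did not overlap for 8, beside 27.3% of all genes tested. Irf8, an interferon regulatory factor of monocyte and dendritic cell development, was at 112, 102 and 90.4 CPM in Ctrl and at 67.1, 63.6 and 46.8 CPM in cKO, and fell by 0.78 (SE 0.11, adjusted p = 0.00076). Irf8 fell, as did 4 of the 10 genes of the monocyte list above, and a link between these changes was not tested. Ifngr1, the ligand-binding receptor chain, fell by 0.38 (adjusted p = 0.0042). Stat2, a mediator of type I interferon signals, rose by 0.33 (adjusted p = 0.040), a call lost without Ctrl replicate 2, Ctrl replicate 3, cKO replicate 2 or cKO replicate 3 (adjusted p from 0.094 to 0.17) and with the library series as a covariate (adjusted p = 0.065). Irf1, which relays interferon gamma to both classes of MHC genes, lay at 0.08 (adjusted p = 0.60). The list of costimulatory partners also holds Cd274 and Pdcd1lg2, whose products are ligands of the inhibitory receptor PD-1. Of this mixed list, 3 of 4 tested genes rose. Cd274, which encodes PD-L1, rose by 0.56 (adjusted p = 0.0048), Icosl by 0.77 (adjusted p = 0.017) and Pdcd1lg2, which encodes PD-L2, by 1.75 (adjusted p = 0.034) at a level below 2 CPM. Icosl lost its call without cKO replicate 2 (adjusted p = 0.10) or Ctrl replicate 3 (0.077), and Pdcd1lg2 without any 1 of the 6 mice (0.052 to 0.12). The costimulatory ligand Cd86 lay at 0.27 (adjusted p = 0.60). Cd80, with 8, 16 and 16 reads in Ctrl and 6, 2 and 2 in cKO, and Cd40, with 0 to 7 reads, were not tested.

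In the mm10 build, B2m lies on chromosome 2, Ciita on chromosome 16 and Cd74 on chromosome 18, and the other members lie in the MHC on chromosome 17. H2-K1 (chr17:33996017-34000333) and H2-D1 (chr17:35262730-35267499) bracket the class II genes H2-DMa (chr17:34135182-34139101), H2-DMb1 (chr17:34153072-34160230), H2-Ab1 (chr17:34263209-34269418), H2-Aa (chr17:34282744-34287827) and H2-Eb1 (chr17:34305877-34316199). Of 135 genes of the table that start between the starts of H2-K1 and H2-D1, 68 were tested, and 2 rose and 1 fell (4.41%, beside 7.67% of all genes). Those that rose were Ddah2, an enzyme that breaks down methylated arginine, by 0.74 (adjusted p = 0.0035), and the complement gene C4b by 0.97 (adjusted p = 0.014), whose reads can be shared with a near-identical neighbour. The gene that fell was H2-Ob. The 68 genes had a median change of 0.011 on the log2 scale. C4b lost its call without cKO replicate 1 (adjusted p = 0.065) or cKO replicate 3 (adjusted p = 0.059).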

How the data were processed

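The deposited table holds counts per gene made by the authors, who demultiplexed with bcl2fastq 2.17.1.14, aligned with GSNAP to mm10 and, with featureCounts 1.5.0, counted reads with 1 alignment by strand on Ensembl 81 (mapping quality of at least 1). The libraries came from the SMARTer Stranded Pico kit, so amplified reads are not independent molecules and intervals cover no more than the spread between these mice. Symbols came from GENCODE M21, which named 98.8% of the gene IDs. Groups came from the genotype in the labels, and replicate numbers are names in accession order.

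All genes kept by filterByExpr (15184) were fitted on genotype with edgeR 4.0.16 (R 4.3.3, TMM factors, quasi-likelihood test), with Benjamini-Hochberg adjustment over all of them and a threshold of 0.05. CPM use the TMM-scaled library size, and RPKM are CPM per kilobase of summed exon. On simulated counts of the same design (14975 genes), 94.5% of 200 genes changed 2-fold were recovered. The 200 were drawn from genes above 5 CPM on average. The recovery therefore does not cover genes as low as Ciita and H2-Eb1, or changes under 2-fold. Alternatives were DESeq2 1.42.0 size factors and its Wald test, other filters, removal of genes above 1% of a library, the library series as a covariate, leaving out each mouse and a threshold of 0.01. The members and lists were chosen with earlier results of these data known. Named were all members, Setd1b, the genes of each list past the threshold (up to 5 by adjusted p), fixed defining markers, the genes past the threshold between H2-K1 and H2-D1, and the 5 genes most correlated with the class II chains. Other genes were named for their role after their values were seen. Some genes that the lists hold are counted in them but not reported here by name.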

Additional observations from a re-analysis of the deposited data

How the results depend on the processing

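0 members were higher in cKO under any of the 13 alternatives. 0 to 1 were lower when each mouse was left out in turn, the 1 being Cd74 without cKO replicate 1. Over these leave-one-out fits the log2 fold change ranged from -0.62 to 0.015 for H2-Aa, from -0.26 to 0.13 for H2-Ab1, from -0.42 to 0.31 for H2-Eb1 and from -0.33 to 0.082 for H2-DMb1, so these signs are not settled. It kept its sign for Cd74 (-0.64 to -0.11), Ciita (-0.98 to -0.20) and H2-DMa (-0.18 to -0.11). The pathway genes that rose numbered 3 to 7 with 1 mouse left out (5 without cKO replicate 1, 3 without cKO replicate 2 and 3 without Ctrl replicate 3) and 3 at an adjusted p under 0.01, against 9. Those that fell numbered 6 to 9 over all alternatives, against 7. Lgmn, Ctss, Fcgrt, Stat2, Icosl, Pdcd1lg2, C4b and Pdia3 lost their call under at least 1 alternative. The calls of the cell marker and lineage cocktail genes were not followed over the alternatives. Among these, Zbtb46, Clec9a, Cd68, Cd163 and Itgam had an adjusted p above 0.01 in the main fit. In the H2-K1 to H2-D1 interval, 1 to 3 genes rose with 1 mouse left out and 1 at an adjusted p under 0.01, and 1 to 2 fell with 1 mouse left out, with 2 under no filter and 2 by the DESeq2 test. The class I sum differed by 0.035 on the log2 scale with B2m alone and by 0.037 within the second library series. Calls over all genes ranged from 513 (threshold 0.01) to 1682 (no filter), against 1164, with 604 without cKO replicate 2, 665 without Ctrl replicate 3 and 739 without cKO replicate 3. The cause was not tested. No paired analysis was possible because no source used here says which Ctrl and cKO mice shared a litter, although the study describes littermates, and the replicate numbers are names in accession order.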

Other observations

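Of 14190 genes outside the lists with at least 1 CPM on average, the 5 whose log2 CPM over the 6 libraries followed the summed class II chains most closely were Esco2 (Pearson r = 0.98), Zfyve1 (0.98), Rbm43 (0.98), Tmpo (0.98) and Zfp955b (0.97). They were picked as the highest of many values over 6 libraries that share depth and library series, and 57 genes reached 0.9, so the values are a description with no test. Esco2 acts in sister chromatid cohesion and Tmpo encodes lamina-associated polypeptides. Among the members, the same correlation was 0.87 for Cd74 and 0.78 for Ciita, which no chain includes, and -0.39 for H2-DMa.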
